A study of Mus musculus with 11 samples.

Results

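The islet hormone genes are the 7 genes *Ins1*, *Ins2*, *Iapp*, *Gcg*, *Sst*, *Ppy* and *Pyy*, which were taken by name from the 19329 genes of the expression table. They were measured by bulk RNA sequencing of whole pancreatic islets from 14-week-old male C57BL/6N mice on a regular chow diet. By the paper's methods, isolated islets were then kept in culture in a medium with serum, for a time given as a range of hours. The culture time of each library is not given, and its part in the levels and their spread was not tested. The study asked how the homozygous substitution P33T in PDX1, a transcription factor of the pancreas and a gene of maturity-onset diabetes of the young, affects the islet. There were 6 libraries from wild-type mice and 5 libraries from mice homozygous for P33T, here called PDX1 P33T. The paper calls the wild-type mice littermates but also says that the cohort came from homozygous crosses. Under such breeding, effects of litter and of genotype cannot be told apart. The mutation was made in the germ line with CRISPR-Cas9, so every cell of the islet carried it, and none of the mice was treated. The study's legends can be read to mean that a library pools several mice, so n and SD refer to libraries and the p-values measure the spread between libraries.

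Each hormone marks an endocrine cell type of the islet. Beta cells make insulin, which in mice comes from the paralogs *Ins1* and *Ins2*, and co-secrete amylin, the product of *Iapp*. Alpha cells make glucagon from *Gcg*, delta cells make somatostatin from *Sst*, and PP cells make pancreatic polypeptide from *Ppy*, while the related peptide YY from *Pyy* is found in several islet cell types. Insulin lowers blood glucose, glucagon raises it, and somatostatin restrains the secretion of both.

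All 7 hormone transcripts were abundant in both genotypes, and for none of them did the difference between PDX1 P33T and wild-type pass the test. *Iapp*, *Gcg*, *Ins1* and *Ins2* had higher means in PDX1 P33T, and *Sst*, *Ppy* and *Pyy* had lower means. In PDX1 P33T the most variable member was *Ppy*, which in a pair of libraries lay below every wild-type library, while in wild-type *Pyy* and *Ppy* had the largest coefficients of variation, at 35.6% and 34.1%. Within the libraries, *Ins1* followed *Ins2* closely, *Pyy* followed *Sst* and *Ppy*, and *Gcg* was lower where insulin was higher.

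The promoters are shown because PDX1 is a homeodomain protein and such proteins bind DNA at a TAAT core. The bases before the transcription start were taken from RefSeq for GRCm38.p6, whose coordinates are those of the reference and not of the build named for the files. Every promoter was searched over 250 bases before the start for TAAT on either strand, which reads as TAAT or ATTA, and overlapping matches were counted separately, as in ATTAAT. Of each window the part outside the annotated exons is printed, which is 248 of the 250 bases for *Iapp* and the whole for the other 3. The capitals mark the matches, and each sequence runs 5′ to 3′ on the strand of its gene.
*Ins1*, chr19:52264047-52264296, plus strand: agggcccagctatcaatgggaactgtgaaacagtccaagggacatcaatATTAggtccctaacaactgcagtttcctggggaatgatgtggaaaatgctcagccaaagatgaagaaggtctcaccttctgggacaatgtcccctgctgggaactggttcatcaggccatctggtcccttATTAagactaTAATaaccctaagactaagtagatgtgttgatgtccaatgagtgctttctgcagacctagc
*Iapp*, chr6:142298175-142298422, plus strand: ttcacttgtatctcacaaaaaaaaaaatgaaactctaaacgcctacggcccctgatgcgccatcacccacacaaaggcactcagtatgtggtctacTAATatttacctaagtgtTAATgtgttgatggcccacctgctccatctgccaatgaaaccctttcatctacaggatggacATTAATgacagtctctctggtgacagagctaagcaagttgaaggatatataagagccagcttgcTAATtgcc
*Gcg*, chr2:62483654-62483903, minus strand: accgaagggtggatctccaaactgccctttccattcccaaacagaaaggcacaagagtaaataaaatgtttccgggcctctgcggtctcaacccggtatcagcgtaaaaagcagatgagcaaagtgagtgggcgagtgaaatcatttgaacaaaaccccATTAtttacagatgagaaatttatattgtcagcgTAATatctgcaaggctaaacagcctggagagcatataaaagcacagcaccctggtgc
*Ppy*, chr11:102101320-102101569, minus strand: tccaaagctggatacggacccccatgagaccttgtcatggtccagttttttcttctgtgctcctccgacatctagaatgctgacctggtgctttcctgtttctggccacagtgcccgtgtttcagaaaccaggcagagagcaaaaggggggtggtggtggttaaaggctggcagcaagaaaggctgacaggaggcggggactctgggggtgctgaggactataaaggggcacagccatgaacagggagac

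The *Ins1* window held 3 matches, and 17.3% of the 32851 promoter windows in the reference held at least 3. The *Iapp* window held 5, and 5.54% of all windows held at least 5. The *Gcg* window held 2, a number reached by 30.8% of all windows, and the *Sst* window held 1, reached by 54.9%. The window of *Ppy* held 0 matches, as did 1 of the 2 windows listed for *Pyy*. The other *Pyy* window was counted among all windows only. *Ins2* had no entry. The same windows were searched for TGACGTCA, the palindromic element through which cyclic AMP acts on somatostatin transcription. Of the windows taken for 6 members, that of *Sst* held it, and 1.55% of all windows did. The site lies before the start that RefSeq gives for *Sst* but inside the first exon of GENCODE vM21, whose start is farther upstream. The matches are descriptions of the letters in these windows, which end at the starts that RefSeq gives. Bases past those starts were not searched, so a promoter used from another start may hold other matches.
*Sst*, chr16:23890877-23890900, minus strand, TGACGTCA in capitals: tccttggcTGACGTCAgagagaga

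The wild-type values of most genes stood on rows of other genes in the deposited table, so each member's wild-type row had to be found first. A gene's FPKM steps give back its length in bases and its whole reads, and for all 7 members the recovered length was that of the exons of GENCODE vM21, from 500 bases for *Ppy* to 1494 for *Gcg*. The *Iapp* row was identified by its reads and the other 6 by length and level. For *Gcg* and *Ppy* no other wild-type row had the length, and for the other members the row taken was above the next of that length by 152-fold for *Pyy* and by more for the rest. In all, 4630 genes could be placed, 24.0% of those listed, and 345 of 345 placements by length that could be checked by reads were right. The fewest reads behind a member's value were 47023, for *Ppy* in PDX1 P33T replicate 3, so counting error was small beside the spread of the libraries.

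The libraries were not equally far apart. PDX1 P33T replicates 3 and 5 had a chi-square of 3.82 per degree of freedom over their recovered reads, and wild-type replicates 4 and 5 one of 5.62, while other pairs of a genotype ranged from 12.2 to 214. These pairs differed by more than sampling noise and were counted as separate libraries. Of the other markers in the PDX1 P33T libraries, those of beta cells summed to 2035 to 2445 FPKM, and the 14 acinar genes, which mark exocrine tissue, to 12.3 to 148 FPKM with the highest sum in replicate 2. The mitochondrial transcript *mt-Co1*, whose wild-type values were taken from the only row of its annotated length above 100 FPKM, ran from 1785 FPKM in wild-type replicate 1 to 16004 FPKM in wild-type replicate 3.

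In the 5 PDX1 P33T libraries, whose rows hold all genes that passed the authors' filter, the 7 hormone genes together took 35.6% ± 2.29 (SD, n = 5) of the reads, from 33.1% to 38.4%. *Ins2* alone took 20.4% ± 1.43 and *Ins1* 9.03% ± 0.629. *Iapp* took 3.48% ± 0.889 and *Gcg* 1.63% ± 0.255. The remaining 3 members were each under 1% on average, with 0.424% ± 0.0664 for *Sst*, 0.315% ± 0.153 for *Ppy* and 0.294% ± 0.0657 for *Pyy*. Read shares were not computed for wild-type, whose table lacks part of its rows. On the FPKM scale, which is per length, the order of the means over all 11 libraries was *Ins2*, *Ins1*, *Iapp*, *Gcg*, *Ppy*, *Sst* and *Pyy*. *Gcg* was above *Ppy* in 8 of 11 libraries and *Ppy* above *Sst* in 8 of 11, and neither of these neighbours was separated beyond the spread (exact sign-flip test within libraries, two-sided, adjusted p = 0.266 and 0.327 over 6 neighbouring pairs). The other 4 neighbouring pairs kept their order in 11 of 11 libraries (adjusted p = 0.00146 in the same exact test, the smallest it can give here). In wild-type replicate 3 *Ppy* ranked above *Iapp*, at 14937 against 14750 FPKM.

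**Figure D1:**
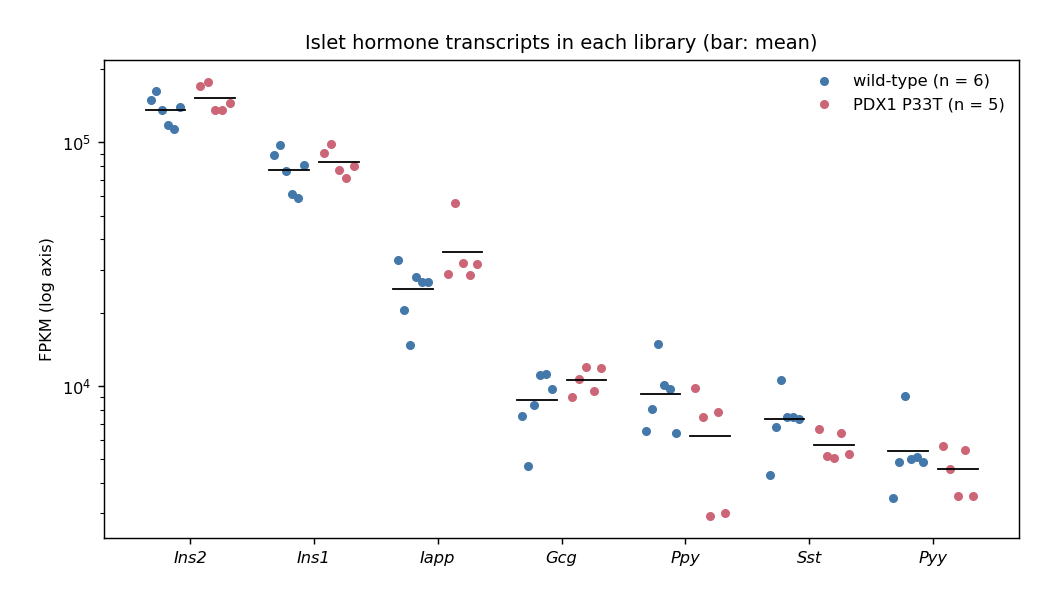
FPKM of the 7 hormone transcripts on a log axis, 1 point per library in order of replicate, for 6 wild-type (blue) and 5 PDX1 P33T libraries (red), with a bar at each mean. The groups overlap for every gene, *Iapp* of PDX1 P33T replicate 2 stands above the rest at 56328 FPKM, and *Ppy* of PDX1 P33T replicates 3 and 5 stands below the rest at 2916 and 3024 FPKM.

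*Ins1*, the insulin gene on chromosome 19, was at 59230 to 97228 FPKM in wild-type with a median of 78676. In PDX1 P33T replicates 1 to 5 it was at 90736, 98787, 76726, 71247 and 79894 FPKM. The groups overlapped, and 1 PDX1 P33T library lay above the wild-type maximum. *Ins2*, the insulin gene on chromosome 7, was at 113559 to 162510 FPKM in wild-type with a median of 137994. In PDX1 P33T it was at 170198, 177811, 135342, 135614 and 145483 FPKM, so that replicates 1 and 2 lay above every wild-type library and the other 3 within their range. The 95% interval of the fold change of PDX1 P33T over wild-type was 0.829 to 1.43 for *Ins1* and 0.871 to 1.45 for *Ins2*.

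The paralogous insulin genes are close copies. Their coding sequences in GENCODE vM21 (1 transcript of each gene) are 327 and 333 bases long and identical at 302 of 327 aligned bases, or 92.4%. The longest identical stretch, 56 bases at the end of the coding sequence, is at chr19:52264894-52264949 on the plus strand for *Ins1* and at chr7:142678714-142678769 on the minus strand for *Ins2* (GRCm38), and it is shown because a short read within it could be given to either gene.
Shared stretch: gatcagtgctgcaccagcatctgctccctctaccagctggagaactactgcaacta
The level of each paralog is therefore uncertain to the extent that such reads were split, while 7 of 278 windows of 50 bases in the *Ins1* coding sequence were found unchanged in *Ins2*. The ratio of *Ins1* to *Ins2* FPKM was 0.563 ± 0.0349 (SD, n = 6) in wild-type and 0.546 ± 0.0168 (SD, n = 5) in PDX1 P33T. Its coefficient of variation was 6.20% and 3.08%, the smallest of the 8 hormone ratios compared, and the genotype difference did not pass the test (exact permutation test, two-sided, p = 0.370, adjusted p = 0.423 over 8 ratios). *Ins2* exceeded *Ins1* 1.67-fold to 1.92-fold in FPKM in the individual libraries, and 2.06-fold to 2.37-fold in reads. FPKM divide by the length of all annotated exons, 1062 bases for *Ins1* and 1312 bases for *Ins2*. The *Ins2* transcript compared above is 478 bases long, so the size of the FPKM ratio depends on the length taken.

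*Iapp*, which encodes the beta cell peptide amylin, was at 14750 to 32996 FPKM in wild-type with a median of 26736. In PDX1 P33T it was at 28704, 56328, 31927, 28444 and 31658 FPKM. All 5 PDX1 P33T libraries were above the wild-type median, but only replicate 2 was above the wild-type maximum, which belonged to replicate 1. The log2 difference between the genotypes was 0.50 ± 0.24 (SE, limma, adjusted p = 0.662), with a 95% interval of the fold from 0.980 to 2.03, and the exact permutation test gave p = 0.0519. Without PDX1 P33T replicate 2 it was 0.32. That library also had the highest acinar sum, 148 FPKM against 12.3 to 26.4 FPKM in the other 4, whose part in the result was not tested. Per 100 FPKM of insulin transcripts (*Ins1* plus *Ins2*) there were 12.0 ± 3.79 FPKM of *Iapp* in wild-type and 14.8 ± 3.43 in PDX1 P33T (exact permutation test, adjusted p = 0.315).

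*Gcg*, the precursor of glucagon, was at 4702 to 11194 FPKM in wild-type with a median of 9053. In PDX1 P33T it was at 9022, 10712, 11983, 9523 and 11850 FPKM, and replicates 3 and 5 were above the wild-type maximum. The PDX1 P33T libraries varied less, with a coefficient of variation of 12.6% against 28.2%, a difference in spread for which no test was run. The log2 difference between the genotypes was 0.32 ± 0.22 (SE, limma, adjusted p = 1), and 0.15 without wild-type replicate 2, the library with the least *Gcg*. *Slc7a2*, an arginine transporter listed among the alpha cell markers, had a log2 difference of 0.17 ± 0.16 (SE, limma, adjusted p = 1). In whole islets fewer cells of a type and less RNA per cell cannot be told apart.

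*Sst*, the precursor of somatostatin, was at 4309 to 10589 FPKM in wild-type with a median of 7383. In PDX1 P33T it was at 6693, 5172, 5069, 6428 and 5238 FPKM. All 5 were below the wild-type median and none was below the wild-type minimum, which belonged to replicate 1. The log2 difference between the genotypes was -0.32 ± 0.20 (SE, limma, adjusted p = 1), with a 95% interval of the fold from 0.592 to 1.08, and the exact permutation test gave p = 0.167. Without wild-type replicate 1 it was -0.46, and without wild-type replicate 3 it was -0.20. The ratio of *Gcg* to *Sst* was 1.26 ± 0.424 (SD, n = 6) in wild-type and 1.91 ± 0.462 (SD, n = 5) in PDX1 P33T, a fold of 1.56. PDX1 P33T replicates 2, 3 and 5, at 2.07, 2.36 and 2.26, were above the wild-type maximum of 1.75, and replicates 1 and 4 were not. The difference did not pass the exact permutation test (p = 0.0606, adjusted p = 0.202 over 8 ratios).

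*Ppy*, the precursor of pancreatic polypeptide, was at 6397 to 14937 FPKM in wild-type with a median of 8881. In PDX1 P33T it was at 9821, 7472, 2916, 7857 and 3024 FPKM. Replicates 3 and 5 lay below the wild-type minimum and the other 3 within the wild-type range, a spread of 3.37-fold between the highest and the lowest PDX1 P33T library. Replicates 3 and 5 are the closest pair of libraries described above. The log2 difference between the genotypes was -0.69 ± 0.35 (SE, limma, adjusted p = 0.709), with a 95% interval of the fold from 0.366 to 1.05, and with the closest pair of each genotype averaged into 1 library, an alternative chosen after the values were seen, it was -0.43 (adjusted p = 1). Without PDX1 P33T replicate 3 it was -0.46, while leaving out PDX1 P33T replicate 1 gave -0.90. Of the other PP cell markers, *Fxyd6*, a regulator of the sodium pump, had an identified wild-type row. It was at 45.1 to 59.9 FPKM in wild-type and at 65.5 to 81.4 FPKM in PDX1 P33T, a log2 difference of 0.45 ± 0.09 (SE, limma, adjusted p = 0.327). Its groups did not overlap, as was so for 5.03% of the genes tested and for 12.7% of those placed, like it, by reads. With its own tests and thresholds, the paper names *Fxyd6* among the few significantly altered in both its RNA and its protein data.

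*Pyy*, the precursor of peptide YY, was at 3466 to 9145 FPKM in wild-type with a median of 4949. In PDX1 P33T it was at 5683, 4558, 3532, 5446 and 3550 FPKM. All 5 were within the wild-type range, and the log2 difference between the genotypes was -0.21 ± 0.23 (SE, limma, adjusted p = 1). Without wild-type replicate 3, whose *Pyy* stood apart from the other 5, it was -0.05. *Ppy* and *Pyy* lie on chromosome 11 on the same strand, 5356 bases apart in GRCm38. Their coding sequences share no identical stretch longer than 8 bases, so reads within the coding sequences can be told apart. The untranslated parts were not compared. The ratio of *Ppy* to *Pyy* was 1.73 ± 0.254 (SD, n = 6) in wild-type and 1.30 ± 0.432 (SD, n = 5) in PDX1 P33T. It was 1.73, 1.64 and 1.44 in PDX1 P33T replicates 1, 2 and 4, within the wild-type range, and 0.826 and 0.852 in replicates 3 and 5, where *Pyy* exceeded *Ppy*. *Ppy* was above *Pyy* in every other library. The genotype difference in this ratio did not pass the test (exact permutation test, p = 0.0758, adjusted p = 0.202).

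Of the 7 members, 0 were called at an adjusted p of at most 0.05 with a fold of at least 1.5, against 0.131% of the 4591 genes tested by limma, or 0.0653% in each direction. The share was 0.239% of the 1673 genes placed by reads, as *Iapp* was, and 0.0685% of the 2918 placed by length and level, as the other 6 members were. At an unadjusted p under 0.05 there were again 0 of 7. The share of all genes tested, 35.2%, is no even background for this count, since it was 86.9% of the genes placed by reads and 5.52% of those placed by length and level. Of the members 0 of 7 had groups that did not overlap, against 12.7% and 0.617% of the genes placed in these ways. Placement by reads used only the part of the supplementary gene table that was at hand. Low p-values were common there, so the genes placed by reads are no random sample of all genes. The median log2 fold change of all genes tested was -0.05. The exact permutation test over libraries, whose smallest possible p is 0.00216 with 6 against 5, gave p from 0.0519 for *Iapp* to 0.468 for *Pyy*. The libraries were also rescaled to the summed FPKM of the genes tested without the hormone genes, which is not the total of the whole library. All 7 differences then moved up by 0.14 on the log2 scale and kept their direction.

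**Figure D2:**
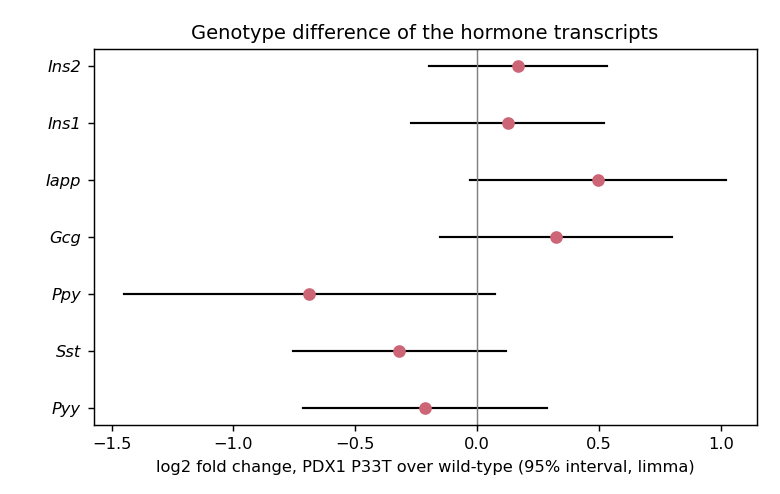
Log2 fold change of PDX1 P33T over wild-type for the 7 hormone transcripts (points) with its 95% interval from limma (lines), 6 against 5 libraries. Every interval crosses 0, and those of *Ppy* and *Iapp* are the widest, from -1.45 to 0.07 and from -0.03 to 1.02.

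Ratios within a library do not depend on its depth or scaling. Per 100 FPKM of insulin transcripts there were 4.34 ± 1.79 FPKM of *Gcg* in wild-type and 4.57 ± 0.917 in PDX1 P33T (exact permutation test, adjusted p = 0.652). This difference turned negative without wild-type replicate 2, at -0.06 on the log2 scale. For *Sst* there were 3.54 ± 1.18 and 2.45 ± 0.448 (adjusted p = 0.221), and for *Pyy* 2.60 ± 1.00 and 1.94 ± 0.456 (adjusted p = 0.315), in the same exact test. For *Ppy* there were 4.51 ± 1.82 in wild-type and 2.60 ± 1.21 in PDX1 P33T, where replicates 2, 3 and 5 were below the wild-type minimum of 2.75 (exact permutation test, p = 0.0714, adjusted p = 0.202). None of the 8 ratios passed.

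**Figure D3:**
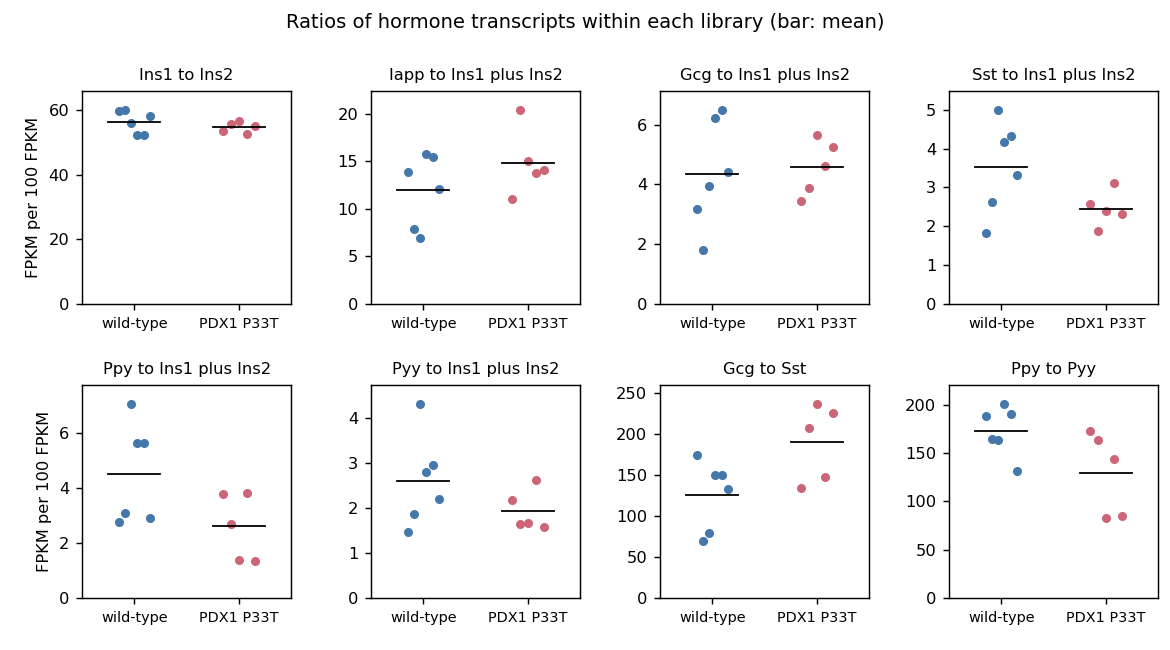
Ratios of hormone transcripts within each library, in FPKM per 100 FPKM of the reference transcript, for 6 wild-type (blue) and 5 PDX1 P33T libraries (red), with a bar at each mean. The groups overlap in all 8 panels, and the ratio of *Ins1* to *Ins2* varies least, from 52.1 to 59.8 in wild-type and from 52.5 to 56.7 in PDX1 P33T.

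The hormones also varied together across libraries, a comparison chosen after the values were seen. For each of the 21 pairs of members, the log2 FPKM of the 11 libraries were set relative to their genotype means and correlated, with permutation p-values adjusted over the 21 pairs. Since all values of a library share its scaling, and abundant transcripts take reads from the others, these coefficients are not independent of each other. *Ins1* and *Ins2* had a Pearson r of 0.98 and a Spearman rho of 0.98 (permutation test, adjusted p = 0.00021 for both, the smallest that it can give), and r was 0.96 without the 2 libraries farthest from the median of *Ins1*.

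Among the hormones of the other cell types, *Sst* and *Pyy* had r of 0.91 and rho of 0.86 (permutation test, adjusted p = 0.00262 and 0.00777), and r was 0.84 without the 2 farthest libraries, wild-type replicates 1 and 3. *Ppy* and *Pyy* had r of 0.83 and rho of 0.91 (permutation test, adjusted p = 0.00525 and 0.00346), and r was 0.83 without PDX1 P33T replicates 3 and 5. *Sst* and *Ppy* had r of 0.63 (permutation test, adjusted p = 0.0856) and rho of 0.75 (adjusted p = 0.0429), and r was 0.71 without wild-type replicates 1 and 3. With the closest pair of each genotype averaged, r over 9 libraries was 0.93 for *Sst* and *Pyy* and 0.84 for *Ppy* and *Pyy*.

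*Gcg* and insulin ran in opposite directions. *Gcg* had r of -0.73 and rho of -0.72 with *Ins1* (permutation test, adjusted p = 0.0266 and 0.0566) and r of -0.73 and rho of -0.76 with *Ins2* (adjusted p = 0.0266 and 0.0429). Without wild-type replicates 2 and 5, the farthest for insulin, r was -0.51 and -0.54, so the relation rests partly on these libraries. With the closest pair of each genotype averaged, r over 9 libraries was -0.67 with *Ins1* and -0.67 with *Ins2*. In wild-type replicate 2 *Gcg* was lowest, at 4702 FPKM, and *Ins2* highest of the wild-type libraries, at 162510 FPKM. The r of *Gcg* with *Ins2* was -0.90 in the 6 wild-type libraries and -0.36 in the 5 PDX1 P33T libraries, and the difference was not tested.

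**Figure D4:**
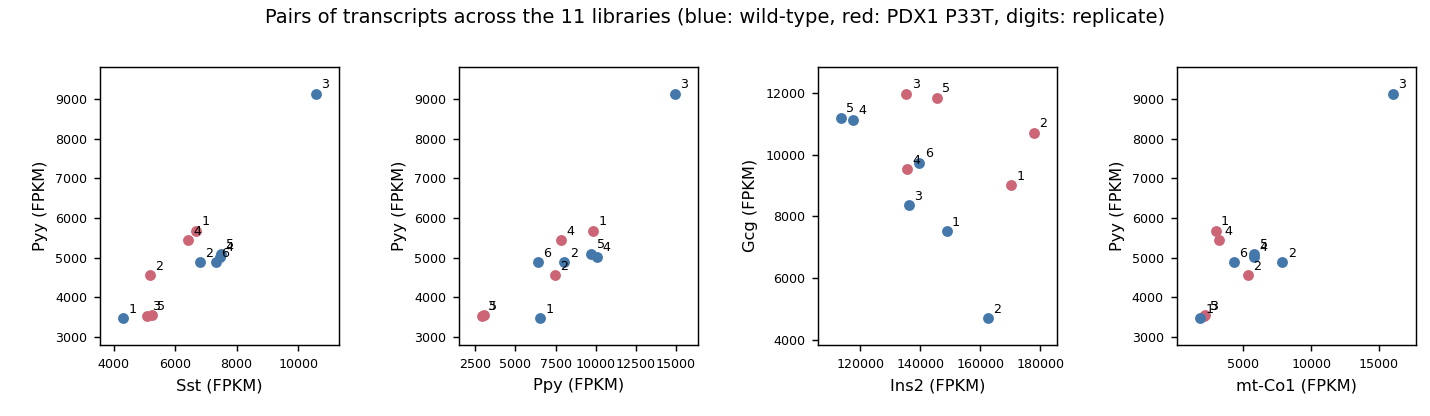
Pairs of transcripts across 6 wild-type (blue) and 5 PDX1 P33T libraries (red), both axes in FPKM, with the replicate number beside each point. *Pyy* rises with *Sst* and *Ppy*, *Gcg* is low where *Ins2* is high in wild-type, and wild-type replicate 3 has the most *Pyy* and the most *mt-Co1*.

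Mitochondrial RNA moved with some of these hormones. *mt-Co1*, a subunit of the respiratory chain encoded in the mitochondrion, was highest in wild-type replicate 3, where *Sst*, *Ppy* and *Pyy* were highest and *Iapp* lowest, and lowest in wild-type replicate 1, where *Sst* and *Pyy* were lowest and *Iapp* highest of the wild-type libraries. Relative to the genotype means its r was 0.83 with *Pyy* and 0.80 with *Sst* (permutation test, adjusted p = 0.0225 and 0.0353 over 7 members), with rho of 0.74 and 0.55 (adjusted p = 0.0891 and 0.204). Without these 2 libraries r fell to 0.44 and -0.01, so both relations rest on them. With *Ppy* r was 0.65 (adjusted p = 0.0591) and 0.65 without them. With *Iapp* r was -0.41 (permutation test, adjusted p = 0.358), but it was -0.92 in the 6 wild-type libraries and 0.76 in the 5 PDX1 P33T libraries, and 0.46 without these 2 libraries, and the difference between the genotypes was not tested. For *Ins1*, *Ins2* and *Gcg* r was between -0.13 and 0.11 (adjusted p from 0.881 to 0.983, permutation test), and without the 2 libraries it was 0.43, 0.54 and -0.45. Markers of endothelial cells, which line the islet capillaries, moved in the same libraries. The 3 of 4 markers with an identified wild-type row, *Pecam1*, *Cdh5* and *Kdr*, summed to 146 FPKM in wild-type replicate 3, to 28.1 FPKM in wild-type replicate 1 and to 41.5 to 62.5 FPKM in the other 4. In PDX1 P33T they summed to 22.0 to 51.4 FPKM, with the lowest sum in replicate 2. The part of mitochondrial RNA and of endothelial cells in the hormone levels was not tested.

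For each member, the genes most like it were taken as the 3 of 3494 with the smallest SD of their log2 ratio to the member over the 5 PDX1 P33T libraries, among genes of at least 10 FPKM. *Ins2* was the third closest to *Ins1* with an SD of 0.04, after *Msln* at 0.02 and *Hist1h2bc* at 0.04, and *Ins1* was second to *Ubb* for *Ins2*. Over the 6 wild-type libraries, which the ranking did not use, the SD was 0.09 between *Ins1* and *Ins2* but 0.45 between *Ins1* and *Msln*. For *Iapp* the closest were *Sdhd*, *Sub1* and *Ube2d3*, with SDs from 0.01 to 0.02. For *Gcg* they were *Maob*, *Sphkap* and *Ank*, from 0.02 to 0.04, and for *Sst* *Hdac11*, *Ctsz* and *Pink1*, at 0.02. Of these 9, *Ube2d3*, *Sphkap* and *Ank* had an identified wild-type row, and their wild-type SDs were 0.35, 0.43 and 0.50.

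*Ppy* had no gene as close, since its 3 nearest, *Gm2000*, *mt-Co3* and *Rpl35*, had SDs of 0.39, 0.41 and 0.42, against a median of 0.83 over all genes compared. In wild-type their SDs to *Ppy* were 0.34, 0.68 and 0.38. The closest genes to *Pyy* were the mitochondrial *mt-Nd6* and *mt-Nd5*, at 0.06 and 0.11, and *Dbp* at 0.11, and in wild-type their SDs were 0.69, 0.83 and 0.59. Between members, the wild-type SD was 0.15 for *Sst* and *Pyy*, 0.22 for *Ppy* and *Pyy* and 0.28 for *Sst* and *Ppy*.

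Other peptide hormones and granins were far less abundant than the 7 members, apart from *Chga*. Of a list of 56, 36 were in the table, 18 had a mean of at least 1 FPKM in PDX1 P33T, and 8 had an identified wild-type row and were tested. Of these 8, 0 were called, and 4 had an unadjusted p under 0.05. These 4 were the genes of the list placed by reads, among which 86.9% of the genes tested had such a p, and of the 4 placed by length and level 0 had one. Their median log2 fold change was 0.08 against -0.05 for all genes tested. *Chga*, the granin chromogranin A of secretory granules, was at 5167 ± 726 FPKM in PDX1 P33T and 4921 ± 804 in wild-type, a log2 difference of 0.07 ± 0.15 (SE, limma, adjusted p = 1). Its relative *Chgb* was at 606 ± 85.0 and 545 ± 63.6 FPKM (adjusted p = 1), and *Scg2*, another granin, at 1487 ± 204 and 1062 ± 291 FPKM, a log2 difference of 0.53 ± 0.20 (SE, limma, adjusted p = 0.495). *Ucn3*, a beta cell peptide that acts on delta cells, was at 591 ± 44.3 FPKM in the mutant libraries, and no wild-type row was identified for it. *Nucb2*, the precursor of nesfatin, was at 82.0 ± 3.08 FPKM in PDX1 P33T and 77.9 ± 9.36 in wild-type (adjusted p = 1).

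The receptors of the hormones in the table reached at most 126 FPKM in a PDX1 P33T library. Of 23 listed, 16 were in the table, 12 had a mean of at least 1 FPKM in PDX1 P33T, 5 were tested, and 0 were called, with 1 at an unadjusted p under 0.05, the only one of the 5 placed by reads. Their median log2 fold change was -0.09. The most abundant was *Glp1r*, the receptor of the *Gcg* product GLP-1, at 112 ± 14.6 FPKM in PDX1 P33T. *Sstr3*, a somatostatin receptor, was at 30.1 ± 4.44 FPKM and *Ramp3*, a part of amylin receptors, at 8.33 ± 1.89 FPKM, and the wild-type rows of these 3 were not identified. *Insrr*, an orphan relative of the insulin receptor, was at 39.9 ± 5.54 FPKM in PDX1 P33T and 41.6 ± 6.83 in wild-type (adjusted p = 1 from limma). *Gcgr*, the glucagon receptor, was at 9.53 ± 1.32 FPKM in PDX1 P33T and 11.6 ± 0.634 in wild-type, a log2 difference of -0.29 ± 0.10 (SE, limma, adjusted p = 0.492). Its highest PDX1 P33T library, at 10.76 FPKM, was just below its lowest wild-type library, at 10.83 FPKM. Groups did not overlap for 5.03% of all genes tested and for 12.7% of those placed, like *Gcgr*, by reads.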

How the data were processed

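Islet RNA was sequenced in 11 libraries. According to the methods and the submitters' processing notes, the authors filtered reads with fastp 0.23.1, aligned them with HISAT2 2.0.5 to GRCm39, counted them with featureCounts 1.5.0-p3 and dropped genes with values in fewer than 80% of a condition's replicates. The authors deposited FPKM values, reads scaled to gene length and library size, for each library. Multiplied by gene length and a library size, the FPKM give whole reads for 18963 of 18963 PDX1 P33T rows above 0. The library sizes that do so were 0.916 to 1.08 times the reads in the table, so the FPKM were scaled to an effective library size. The reads in the table ranged from 22849672 to 34866763 in PDX1 P33T. Whether the libraries kept strand is not settled by the methods, so overlapping genes are uncertain.

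Wild-type values stood on rows of other genes for most genes. Rows were identified by the wild-type reads of a supplementary gene table (1712 genes), or by equal recovered length and a mean within 4-fold with no other row of that length within 16-fold and at least 100 reads (2918 genes). Genotypes were compared with limma 3.58.1 (R 4.3.3) on log2(FPKM + 0.1), using trend and robust options and no covariates. Benjamini-Hochberg adjustment ran over 19329 genes, with genes not placed taken as unchanged. Of the 4630 genes placed, 4591 were tested, since the others were listed at 0 in every PDX1 P33T library. Genes were called at a fold of at least 1.5 and an adjusted p up to 0.05. Ratios were compared by two-sided exact permutation tests, adjusted over 8 ratios, and correlations by 100000 permutations. Python 3.11.15 with scipy 1.17.1 was used for ratios and permutations. The fit was tested on simulated data. Named beside the members were the 5 most abundant genes of each list and the 3 genes most like each member, and *Slc7a2*, *Fxyd6* and *mt-Co1* were added after their values were seen. Some marker genes are not reported here. The members, lists and tests were chosen with earlier results of these data known.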

Additional observations from a re-analysis of the deposited data

Results flagged for a closer look

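Of 30 sets of values from 1 genotype that were examined for a library far from the rest, 2 had one, and chance alone sets apart about 1 in 20. *Iapp* in PDX1 P33T replicate 2 reached 56328 FPKM, while the other 4 lay between 28444 and 31927. *Pyy* in wild-type replicate 3 reached 9145 FPKM, while the other 5 lay between 3466 and 5094.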

How the results depend on the processing

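None of the 7 members was called under any alternative. The alternatives were pseudocounts of 1 and 0.01, a mean of at least 1 FPKM, both rescalings, plain limma, row limits of 2-fold and 8-fold, a replicate block, each library left out and, chosen after the data were seen, the closest pairs averaged. Of 8 ratios none passed, and *Gcg* to insulin turned to -0.0562 without wild-type replicate 2 (range -0.0562 to 0.312, leaving out each library). Over all genes, 3 were called higher and 3 lower. The count called higher was 1 with a pseudocount of 0.01, with a mean of at least 1 FPKM and with the closest pairs averaged, and 5 when rescaled without the hormone genes. The count called lower was 1 with a row limit of 2-fold. Leaving out 1 library gave 1 to 3 higher and 2 to 5 lower, with 5 without wild-type replicate 1 and 1 higher without wild-type replicates 2, 5 or 6 or PDX1 P33T replicates 1, 3, 4 or 5. The cause was not tested. Same-numbered libraries did not deviate together (r over genes from -0.58 to 0.12). That shows no shared deviation by number but cannot exclude that such libraries were handled together. The replicate block gave 0 higher and 1 lower by titles and 1 higher and 2 lower by library names, and changed no other call. Wild-type read shares cannot be had, and the interval of *Ppy* holds both no difference and a fall of more than 1.5-fold.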
